A study of Mus musculus with 9 samples.

Results

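Ribosome footprints on 10 genes, 9 of the prostaglandin pathway and thrombomodulin, were followed across 3 immortalized mouse striatal cell lines. The 9 are the cyclooxygenases Ptgs1 and Ptgs2, the prostaglandin E synthases Ptges, Ptges2 and Ptges3, the prostacyclin synthase Ptgis, the prostaglandin D synthase Ptgds, the thromboxane synthase Tbxas1 and the prostaglandin reductase Ptgr1, and the tenth gene is Thbd, which encodes thrombomodulin. They were found by symbol among the 36410 rows of the deposited gene counts. Of the 10, Ptgis and Thbd had been selected on their high counts in HD-homo cells in these same libraries, and the other 8 were chosen by name as enzymes of the same pathway with results of these data known, so no test below is independent support for the choice.

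The control line (STHdhQ7/Q7) carries knock-in Htt exon 1 alleles with 7 glutamine repeats, the HD-het line (STHdhQ7/Q111) has 1 allele with 7 and 1 with 111 repeats, and the HD-homo line (STHdhQ111/Q111) has 2 alleles with 111 repeats. All lines were labelled as strain C57/BL6, all were given cycloheximide, which stalls elongating ribosomes, for 10 min before lysis, and each line gave 3 libraries from independent rounds of culture. Each genotype was a single cell line, so huntingtin genotype and any other difference between the lines cannot be told apart, and p-values measure the spread between cultures of 1 line. The libraries held between 22504543 and 41888701 counts, and 3 counts, which is as much as an observed 0 leaves possible, equalled 0.0714 to 0.142 CPM (counts per 1e+06 counts of a library, adjusted by the composition factors of the fit). Matched mRNA was not analysed here, so every level is an abundance of footprints, which does not tell more mRNA from more ribosomes per mRNA.

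Prostaglandins are made from arachidonic acid, which phospholipases free from membranes. The cyclooxygenases Ptgs1, usually present at a steady level, and Ptgs2, usually induced by growth factors and inflammatory signals, convert it to prostaglandin H2, and terminal synthases turn that intermediate into prostaglandin E2, prostacyclin, prostaglandin D2 or thromboxane. In the brain these lipids act on neurons, glia and vessels, and Ptgs2 in neurons follows synaptic activity. Thrombomodulin is a membrane protein best known from endothelium, where it binds thrombin and turns it from a clotting enzyme into an activator of protein C.

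The promoters of 3 enzymes whose levels differed between lines are given for context: both cyclooxygenases, which were highest in the same line, and Ptges, which was close to 0 in one line and frequent in another. Each is the 250 bases before the RefSeq start on GRCm38.p6, from 5′ to 3′ on the gene's own strand, with capitals for matches, on either strand, to 6 motifs. The E-box, which basic helix-loop-helix factors bind, was searched as CACGTG. The core of the cyclic AMP response element was searched as ACGTCA. For factors of the C/EBP family the palindrome TTGCGCAA was used. The letters GGGCGG stood for the Sp family box, TATAAA stood for the element of that name, and CACCC for boxes bound by factors of the Klf family.
Ptgs2, chr1:150099781-150100030, plus strand: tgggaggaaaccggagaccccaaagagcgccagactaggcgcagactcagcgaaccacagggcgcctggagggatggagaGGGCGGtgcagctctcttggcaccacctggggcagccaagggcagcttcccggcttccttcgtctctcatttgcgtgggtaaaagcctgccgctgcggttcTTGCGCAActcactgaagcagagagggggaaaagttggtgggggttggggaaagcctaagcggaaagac
Ptgs1, chr2:36230176-36230425, plus strand: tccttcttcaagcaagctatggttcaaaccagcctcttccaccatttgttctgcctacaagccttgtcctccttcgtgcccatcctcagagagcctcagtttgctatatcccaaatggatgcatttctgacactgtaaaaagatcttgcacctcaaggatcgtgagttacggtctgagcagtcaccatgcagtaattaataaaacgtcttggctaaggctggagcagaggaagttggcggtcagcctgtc
Ptges, chr2:30903298-30903547, minus strand: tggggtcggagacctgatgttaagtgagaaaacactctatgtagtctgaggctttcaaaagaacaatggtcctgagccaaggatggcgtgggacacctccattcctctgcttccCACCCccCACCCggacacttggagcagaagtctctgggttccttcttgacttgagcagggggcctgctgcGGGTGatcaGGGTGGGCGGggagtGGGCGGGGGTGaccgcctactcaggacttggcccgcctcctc
The Ptgs2 window held TTGCGCAA 69 bases before the start, letters found in 0.164% of 32851 mouse promoters of the same length, and GGGCGG 170 bases before it, found in 32.7%. The Ptgs1 window, which lies inside the span of the gene, held none of the 6, of which the E-box letters occur in 6.02%, the response element core in 6.47% and the TATA letters in 12.4% of promoters. The Ptges window, also inside the span of its gene, held GGGCGG at 53 and 42 bases before the start and CACCC at 5 places between 136 and 36 bases before it, a motif that 52% of promoters hold, and 1 of these places shared a base with GGGCGG. These matches are letters in a window and were not tested as binding sites. Of the 10 genes, 8 had a promoter in the table used.

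Both cyclooxygenases were highest in HD-het cells. Values by library are given in the order of replicates 1, 2 and 3. Ptgs2 (gene 19225, chr1:150100031-150108234) had 728, 861 and 586 CPM in the control libraries, against 2535, 2716 and 2768 CPM in those of HD-het and 986, 1141 and 1372 CPM in those of HD-homo. No library of one line overlapped with those of another, and the order was control, HD-homo, HD-het. The means were 725 ± 137, 2673 ± 123 and 1166 ± 194 CPM (SD, n = 3) in that order: control, HD-het and HD-homo. Against control, the log2 fold change was 1.88 (SE 0.15, adjusted p = 1.83e-06) in HD-het and 0.69 (SE 0.14, adjusted p = 0.00257) in HD-homo cells, and HD-homo was below HD-het, with a difference of -1.20 on the log2 scale (SE 0.15, adjusted p = 2.46e-05). Ptgs2 took 0.0728%, 0.259% and 0.119% of all counts in the 3 lines, and ranked by CPM per coding length it stood between 429 and 613 of 20944 rows in control, between 81 and 100 in HD-het and between 283 and 370 in HD-homo libraries.

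Ptgs1 (gene 19224, chr2:36216742-36258593) followed the same line in its peak but not in the order of the other lines. It had 44.5, 50.7 and 37.2 CPM in the control libraries, against 115, 135 and 158 CPM in those of HD-het and 39.3, 16.5 and 44.0 CPM in those of HD-homo. All HD-het libraries lay above all others, while control and HD-homo overlapped and HD-homo replicate 2 was the lowest. Ptgs1 rose in HD-het over control (log2 fold change 1.62, SE 0.28, adjusted p = 0.000466) and was lower in the homozygous than in the heterozygous line (-2.03, SE 0.29, adjusted p = 7.41e-05), and between HD-homo and control the log2 fold change of -0.41 (SE 0.28) did not pass (adjusted p = 0.258).

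Per coding length, Ptgs2 exceeded Ptgs1 in every library. The ratio of the pair averaged 16.3 ± 0.594, 19.8 ± 2.23 and 41.6 ± 23.8 for control, HD-het and HD-homo (SD, n = 3). The HD-homo ratios were 25, 68.9 and 31.1 in replicates 1 to 3, so the mean there was raised by replicate 2, in which Ptgs1 and not Ptgs2 was low. Ptgs2 thus held on average 94.2%, 95.2% and 97.2% of the length-scaled cyclooxygenase footprints of control, HD-het and HD-homo.

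Of 10 fibroblast and meningeal markers, 4 (Col1a1, Col3a1, Pdgfrb and Slc6a13) had their highest mean in HD-het cells, the line in which the cyclooxygenases peaked, and the other 6 in HD-homo cells. Most of their sum was the collagen gene Col1a1, with a mean of 16522 CPM in HD-het cells: the summed level of the 10 ran from 2619 to 4816 CPM over the control libraries, from 16179 to 20533 CPM over those of HD-het and from 5560 to 6975 CPM over those of HD-homo. In these bulk lysates, fewer cells of a type and less RNA per cell cannot be told apart. The part of these markers' cells in the cyclooxygenase levels was not tested.

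**Figure D1:**
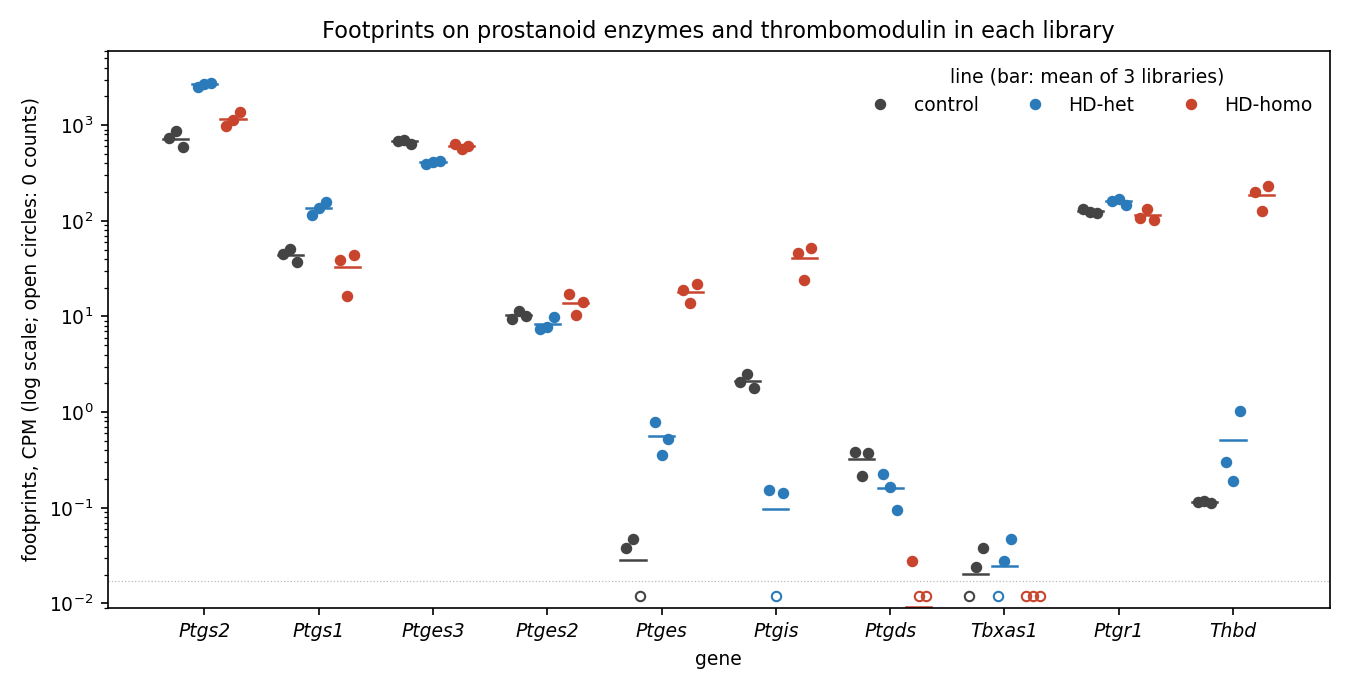
Footprints (CPM, log scale) on each of the 10 genes in the 9 libraries, coloured by line, with a bar at the mean of 3 libraries and open circles for libraries with 0 counts. Ptgs2 and Ptgs1 were highest in HD-het, whereas Ptges, Ptgis and Thbd were highest in HD-homo libraries.

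The 3 prostaglandin E synthases did not follow one another. Ptges, the inducible membrane enzyme that is often coupled to Ptgs2 (gene 64292, chr2:30889471-30931020), went from almost no footprints in control to a clear signal in HD-homo cells. It had 1, 2 and 0 counts in control, 21, 13 and 11 counts in HD-het (0.797, 0.358 and 0.520 CPM) and 686, 364 and 487 counts in HD-homo libraries (19.1, 13.9 and 21.6 CPM). The lines did not overlap.

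The test called Ptges higher in HD-het than in control (log2 fold change 3.93, SE 0.67, adjusted p = 0.000412), higher again in HD-homo (8.99 relative to control, SE 0.40, adjusted p = 1.52e-08) and higher in the homozygous than in the heterozygous line (5.06, SE 0.27, adjusted p = 4.92e-08). Ptges passed the filter on low counts only with its HD-homo libraries, so these calls are no separate support. The control group held only 3 counts in all, so the fold over control is loose: the ratio of pooled counts was 574 for HD-homo (95% exact interval 196 to 2785) and 17 for HD-het (5.44 to 85.3), where such intervals cover counting error only because amplified reads are not independent molecules. Ptgs2 and Ptges therefore peaked in different lines, Ptgs2 in HD-het and Ptges in HD-homo cells. In RefSeq, Ptges also overlaps the predicted genes Gm13400 and Gm52550, and use of strand in the counting was not given in the sources used here.

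Ptges3, the cytosolic enzyme that is also the p23 co-chaperone of Hsp90 (gene 56351, chr10:128058982-128077254), was lowest in HD-het cells. Its levels were 688, 705 and 641 CPM in the control libraries, against 390, 412 and 425 CPM in those of HD-het and 629, 567 and 602 CPM in those of HD-homo. The control and HD-het libraries stood clearly apart, and the lowest control library was only slightly above the highest HD-homo library. Ptges3 fell in HD-het against control (log2 fold change -0.73, SE 0.08, adjusted p = 1.44e-05) and stood higher in the homozygous than in the heterozygous line (0.55, SE 0.08, adjusted p = 7.18e-05), and the change of HD-homo relative to control, -0.18 (SE 0.08), did not pass (adjusted p = 0.0816). RefSeq holds a pseudogene copy, Ptges3-ps, and lists Ptges as an older synonym of Ptges3, so fragments shared with a copy are uncertain, although each symbol had a row of its own.

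Ptges2, the membrane-associated enzyme of the Golgi (gene 96979, chr2:32395890-32402740), was rare. It had 9.47, 11.5 and 10.2 CPM in the control libraries, against 7.40, 7.73 and 9.88 CPM in those of HD-het and 17.4, 10.3 and 14.3 CPM in those of HD-homo. Control overlapped with both other lines, and the lowest HD-homo library, replicate 2, lay just above the highest HD-het library. RefSeq lists Gbf1, which had a row of its own, as a synonym of Ptges2. Of the 3 comparisons, only HD-homo against HD-het passed (log2 fold change 0.76, SE 0.19, adjusted p = 0.00352). Relative to control, HD-het differed by -0.33 (SE 0.19, adjusted p = 0.151) and HD-homo by 0.43 (SE 0.18, adjusted p = 0.0729) on the log2 scale, and the latter passed without HD-homo replicate 2 (0.61, adjusted p = 0.00667). Per coding length, mean levels were 1413, 852 and 1249 CPM per kb for Ptges3, 9.01, 7.24 and 12.2 for Ptges2 and 0.0623, 1.22 and 39.7 for Ptges for control, HD-het and HD-homo, so that Ptges3 was the most frequent E synthase in all lines, and Ptges passed Ptges2 in HD-homo cells alone.

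Ptgis, which turns prostaglandin H2 into the vasodilator prostacyclin (gene 19223, chr2:167203194-167252150), was present at a low level in control, nearly absent in HD-het and frequent in HD-homo cells. Its counts were 54, 105 and 48 in control, 4, 0 and 3 in HD-het and 1671, 637 and 1166 in HD-homo libraries, which came to 2.06, 2.50 and 1.81 CPM, 0.152, 0 and 0.142 CPM, and 46.5, 24.4 and 51.7 CPM. The lines did not overlap, and the heterozygous line lay outside the range between the other lines. As a description of the values that selected it, the log2 fold change was 4.24 (SE 0.31) in HD-homo against control and -4.61 (SE 0.64) in HD-het against control. The ratio of pooled counts was 26.2-fold lower in HD-het than in control (95% exact interval 12.5 to 65.9). RefSeq places the predicted gene Gm52569 over the same span.

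The other terminal synthases were at or near the detection limit. Ptgds, whose product prostaglandin D2 is the main prostanoid of the brain (gene 19215, chr2:25466709-25470110), had 10, 9 and 10 counts in control, 6, 6 and 2 in HD-het and 1, 0 and 0 in HD-homo libraries. It did not pass the filter on low counts and was not tested, and its pooled ratio was 25.9-fold lower in HD-homo than in control (95% exact interval 4.29 to 1058). Tbxas1, the platelet and macrophage enzyme for thromboxane (gene 21391, chr6:38864159-39084590), had no more than 1 count in any library and was also left untested. In RefSeq, Tbxas1 overlaps Hipk2 and several other genes, and use of strand in the counting was not given. Some markers of brain cells known to express Ptgds or Tbxas1 were at 0. The microglial genes Cx3cr1, Tyrobp and Ly86 had 0 counts in all 9 libraries, and the oligodendrocyte genes Mog, Mobp, Olig2 and Cldn11 likewise. The summed level of 10 microglial markers was at most 9.22 CPM and that of 10 oligodendrocyte markers at most 13.1 CPM in any library. The 10 fibroblast and meningeal markers, from cells that can also express Ptgds, summed to at least 2619 CPM in every library. The part of any of these cells in the level of Ptgds was not tested.

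Ptgr1, a reductase that inactivates leukotriene B4 and 15-oxo prostaglandins (gene 67103, chr4:58965590-58987131), differed little between lines. It had 132, 124 and 120 CPM in the control libraries, against 163, 169 and 146 CPM in those of HD-het and 107, 133 and 102 CPM in those of HD-homo. HD-het lay above the other lines, which overlapped with each other. The log2 fold change was 0.35 in HD-het against control (SE 0.11, adjusted p = 0.0154) and -0.48 in HD-homo against HD-het (SE 0.11, adjusted p = 0.00199), and -0.13 in HD-homo against control (SE 0.11, adjusted p = 0.335). The first was lost without control replicate 3 (adjusted p = 0.0560), HD-het replicate 1 (0.0583) or HD-het replicate 2 (0.0754), and the last passed without HD-homo replicate 2 (-0.26, adjusted p = 0.0374).

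Thbd (gene 21824, chr2:148404471-148408188) was almost without footprints in control and frequent in HD-homo cells. Its counts were 3, 5 and 3 in control, 8, 7 and 22 in HD-het and 7258, 3304 and 5221 in HD-homo libraries. In CPM these were 0.115, 0.119 and 0.113, then 0.304, 0.193 and 1.04, then 202, 126 and 232. The lowest HD-homo library was far above the highest HD-het library, which was itself above every control library. As a description of the values that selected it, HD-homo stood above control by a log2 fold change of 10.60 (SE 0.44), with a ratio of pooled counts of 1607 (95% exact interval 898 to 3219). The size of the step from control to HD-het, 1.92 (SE 0.84) on the log2 scale, depended on HD-het replicate 3 and was 1.00 without it. All HD-het libraries lay above all control libraries, though at 7 to 22 counts against 3 to 5. Per coding length, Thbd had 108 ± 31.3 CPM per kb in HD-homo cells, beside 18.4 ± 8.14 for Ptgs1, 26.8 ± 9.51 for Ptgis and 644 ± 107 for Ptgs2 (SD, n = 3).

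**Figure D2:**
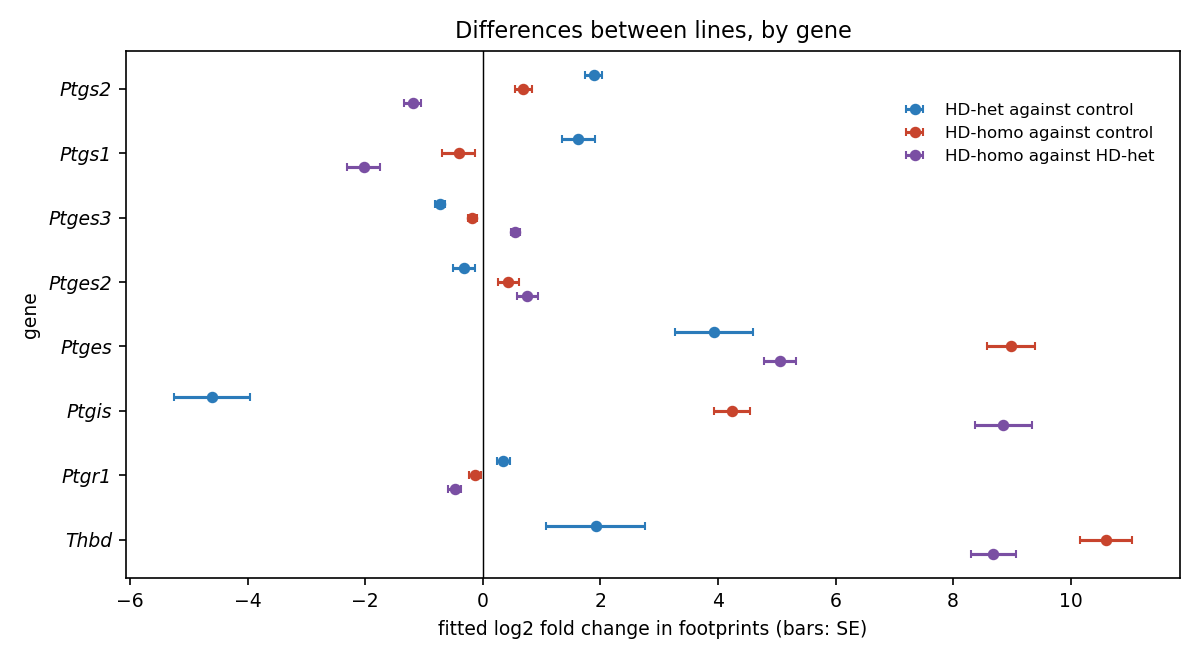
Fitted log2 fold changes with their SE for the 8 genes that passed the filter, for each HD line relative to control and for HD-homo relative to HD-het. Ptgs1 and Ptgs2 lay right of 0 for HD-het against control and left of 0 for HD-homo against HD-het, and Ptgis lay on opposite sides of 0 in the comparisons of the HD lines with control.

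Of the 10 genes, 8 passed the filter, as did 6 of the 8 enzymes taken by name. Among these 6, Ptges passed only with its HD-homo libraries, so its calls as higher are no separate support. In HD-het against control, 4 of these 6 were higher, a call that 31% of all 12678 tested genes got, and 1 was lower, a call that 29.1% got. In HD-homo against control, 2 were higher and none lower, against 23.3% and 22.3% of all genes. In HD-homo against HD-het, 3 were higher and 3 lower, against 34.6% and 32.8% of all genes. Calls were thus common among all genes, and with 6 enzymes that were chosen with results known nothing particular to the group is read from these counts. The comparisons with control share the control libraries, and each comparison's values are given side by side only.

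The genes around these enzymes were taken from a list of 45 names for substrate release, breakdown, transport and reception of prostanoids and related lipids. Prxl2b and Fam213b on it are names of 1 gene, 44 names had a row, and 21 passed the filter. Of the 21, 9 were higher and 5 lower in HD-het than in control, with a median log2 fold change of 0.48 beside 0.02 over all genes. In HD-homo against control 11 were higher and 4 lower (median 0.75 beside 0.02), and in HD-homo against HD-het 12 were higher and 6 lower (median 0.57 beside 0.02). The shares called in either direction, 66.7%, 71.4% and 85.7%, stood beside 60.1%, 45.7% and 67.5% of all genes tested. Hpgd, Ptgfr and Ptger1 had at most 7 counts in any control or HD-het library and passed the filter through HD-homo alone. Alox12, with at most 11 counts in control and 2 in HD-het libraries, likewise passed only with its HD-homo libraries. Fam213b, with at most 1 count in any control or HD-homo library, passed through HD-het alone. The calls of these genes as higher in the line through which they passed, and their pull on the medians, are therefore no separate support. With at least 10 counts asked of every library, 13 were tested and 8 called in HD-homo against control. The share called among the 11071 genes then tested is not given here, so nothing is read from this count.

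On the side of substrate supply, Pla2g4a, the cytosolic phospholipase that frees arachidonic acid, had its peak in the same line as the cyclooxygenases. It had 110, 114 and 124 CPM in the control libraries, against 212, 232 and 229 CPM in those of HD-het and 95, 85.9 and 114 CPM in those of HD-homo, and HD-het lay above both other lines. The log2 fold change was 0.95 in HD-het against control (SE 0.10, adjusted p = 1.77e-05) and -0.24 in HD-homo against control (SE 0.10, adjusted p = 0.0834). Mgll, which frees arachidonic acid by way of the endocannabinoid 2-arachidonoylglycerol, rose in both, by 3.65 (SE 0.31, adjusted p = 3.27e-06) and 1.51 (SE 0.32, adjusted p = 0.00278). The phospholipase Pla2g6 fell in HD-het by 1.17 (SE 0.14, adjusted p = 3.79e-05), and Pla2g12a was lower than control in both HD lines (-0.35 and -0.74, adjusted p = 0.0372 and 0.00084).

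Slco2a1, Hpgd and Ptgr2, which serve the uptake and inactivation of prostaglandins, were highest in HD-homo cells. Slco2a1, the carrier that takes prostaglandins up into cells, had 0.344, 0.404 and 0.752 CPM in the control libraries, against 0.456, 0.468 and 0.520 CPM in those of HD-het and 25.3, 13.9 and 27.1 CPM in those of HD-homo. It was higher in HD-homo than in control by 5.49 on the log2 scale (SE 0.32, adjusted p = 1.27e-07), and the change in HD-het was -0.03 (SE 0.47, adjusted p = 0.958). Hpgd, the dehydrogenase that starts the breakdown of prostaglandin E2, had 0 counts in all control libraries, 0, 1 and 0 in HD-het and 52, 60 and 107 in HD-homo libraries, which put its mean at least 28.4-fold higher in HD-homo than a floor of 3 counts per control library (adjusted p = 6.88e-05). Ptgr2, which acts after Hpgd, had 1, 1 and 4 counts in control, 139, 169 and 86 in HD-het and 673, 616 and 472 in HD-homo libraries. It rose in both HD lines, by 6.11 on the log2 scale (SE 0.33, adjusted p = 1.32e-07) in HD-het and 8.28 (SE 0.30, adjusted p = 3.02e-09) in HD-homo cells, with ratios of pooled counts over control of 74.2 (95% exact interval 33.8 to 204) and 329 (151 to 897).

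Other genes of turnover and export differed as well. Abcc4, which exports prostaglandins, rose by 0.77 and 0.75 (adjusted p = 0.00115 and 0.0021) in HD-het and HD-homo cells, and the carbonyl reductase Cbr1 by 0.48 and 1.10 (adjusted p = 0.00198 and 6.33e-06). Akr1b3, an aldo-keto reductase that can form prostaglandin F2α, fell in HD-het by 1.07 (adjusted p = 5.89e-06) and was -0.12 in HD-homo against control (adjusted p = 0.368). Zadh2, another prostaglandin reductase, did not pass in any comparison and had 15.7, 18.4 and 16.1 CPM on average for control, HD-het and HD-homo. Lta4h, an enzyme of the leukotriene branch, fell in both HD lines, by 0.72 (adjusted p = 2.57e-05) in HD-het and 0.49 (adjusted p = 0.000554) in HD-homo cells.

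Prostanoid receptors at the cell surface were rare in all 3 lines. Ptger4, a prostaglandin E2 receptor that raises cyclic AMP, had 1.41, 1.36 and 1.66 CPM in the control libraries, against 2.66, 2.48 and 3.26 CPM in those of HD-het and 0.25, 0.0765 and 0.133 CPM in those of HD-homo. The lines did not overlap, and Ptger4 was higher than control in HD-het (log2 fold change 0.92, SE 0.22, adjusted p = 0.00398) and lower in HD-homo cells (-3.13, SE 0.33, adjusted p = 1.59e-05). Ptgfr, the receptor of prostaglandin F2α, had 2, 1 and 0 counts in control, 0, 3 and 1 in HD-het and 47, 45 and 39 in HD-homo libraries, a pooled ratio of 48.9 in HD-homo over control (95% exact interval 16.4 to 240).

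Ptger1, another prostaglandin E2 receptor, had 0, 0 and 1 counts in control, 7, 2 and 7 in HD-het and 27, 11 and 23 in HD-homo libraries, and was called higher in both HD lines (adjusted p = 0.0145 and 0.000307), with ratios of pooled counts over control of 18.1 (95% exact interval 2.81 to 759) and 68.3 (11.8 to 2742). The prostacyclin receptor Ptgir had 0 counts in all control and HD-het libraries and 5, 2 and 1 counts in HD-homo libraries, below the filter, and Ptger2 had 0 counts in all 9. Pparg, a nuclear receptor that binds prostaglandin J2 derivatives among other lipids, rose in both HD lines, by 2.13 (SE 0.19, adjusted p = 4.07e-06) in HD-het and 2.70 (SE 0.19, adjusted p = 5.69e-07) in HD-homo cells. Ppard, for which prostacyclin has been proposed as a ligand, rose in HD-homo by 0.80 (SE 0.13, adjusted p = 0.000394) and stood at -0.10 in HD-het (adjusted p = 0.545).

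A second list, of 38 genes that work with or beside thrombomodulin in coagulation, had 16 genes past the filter. Of these, 11 were higher and none lower in HD-het than in control (median log2 fold change 1.11), 6 were higher and 3 lower in HD-homo than in control (median 0.20), and 2 were higher and 9 lower when HD-homo was set against HD-het (median -0.76). The shares called were 68.8%, 56.3% and 68.8%, beside 60.1%, 45.7% and 67.5% of all genes tested. Entpd1 passed the filter only through its HD-het counts, so its call as higher there is no separate support.

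Procr and Pros1, the tested genes that act with protein C, rose in both HD lines and were highest in HD-homo cells. Procr, the receptor that presents protein C to the complex of thrombin and thrombomodulin, had 3.59, 2.88 and 2.82 CPM in the control libraries, against 10.4, 8.14 and 11.4 CPM in those of HD-het and 21.9, 16.4 and 25.3 CPM in those of HD-homo. Pros1, the cofactor of activated protein C, had 12.7, 16.1 and 10.6 CPM in the control libraries, against 19.4, 24.5 and 25.8 CPM in those of HD-het and 59.8, 52.7 and 76.4 CPM in those of HD-homo. For both genes the lines did not overlap and the order was control, HD-het, HD-homo, with log2 fold changes in HD-homo against control of 2.78 (SE 0.19, adjusted p = 5.32e-07) for Procr and 2.25 (SE 0.18, adjusted p = 1.72e-06) for Pros1. The thrombin receptor F2r had 233, 251 and 172 CPM in the control libraries, against 323, 282 and 358 CPM in those of HD-het and 68.2, 57.1 and 42.9 CPM in those of HD-homo, and it rose in HD-het by 0.55 on the log2 scale (SE 0.17, adjusted p = 0.0169) and fell in HD-homo by 1.96 (SE 0.18, adjusted p = 5.37e-06).

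Several other genes of the list peaked in HD-het cells. F3, or tissue factor, which starts coagulation, averaged 337 ± 87.8, 2336 ± 263 and 540 ± 78.1 CPM over the control, HD-het and HD-homo libraries (SD, n = 3), and rose in HD-het by 2.79 (SE 0.19, adjusted p = 6.63e-07) and in HD-homo by 0.68 (SE 0.18, adjusted p = 0.0091). Serpine2, or protease nexin 1, an inhibitor of thrombin, averaged 3.00 ± 0.827, 169 ± 25.1 and 6.26 ± 2.30 CPM and rose in HD-het by 5.82 (SE 0.26, adjusted p = 3.43e-08). F2rl1, a receptor cut by tissue factor complexes, rose by 4.28 in HD-het (SE 0.35, adjusted p = 2.14e-06) and by 1.33 in HD-homo cells (SE 0.35, adjusted p = 0.00933). Klf2, a transcription factor known to activate Thbd in endothelium, did not pass in any comparison: its values in HD-homo against control were a log2 fold change of 0.20 (SE 0.24) and an adjusted p of 0.542. Klf4, a related factor, fell in HD-homo by 0.83 (SE 0.14, adjusted p = 0.00048).

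**Figure D3:**
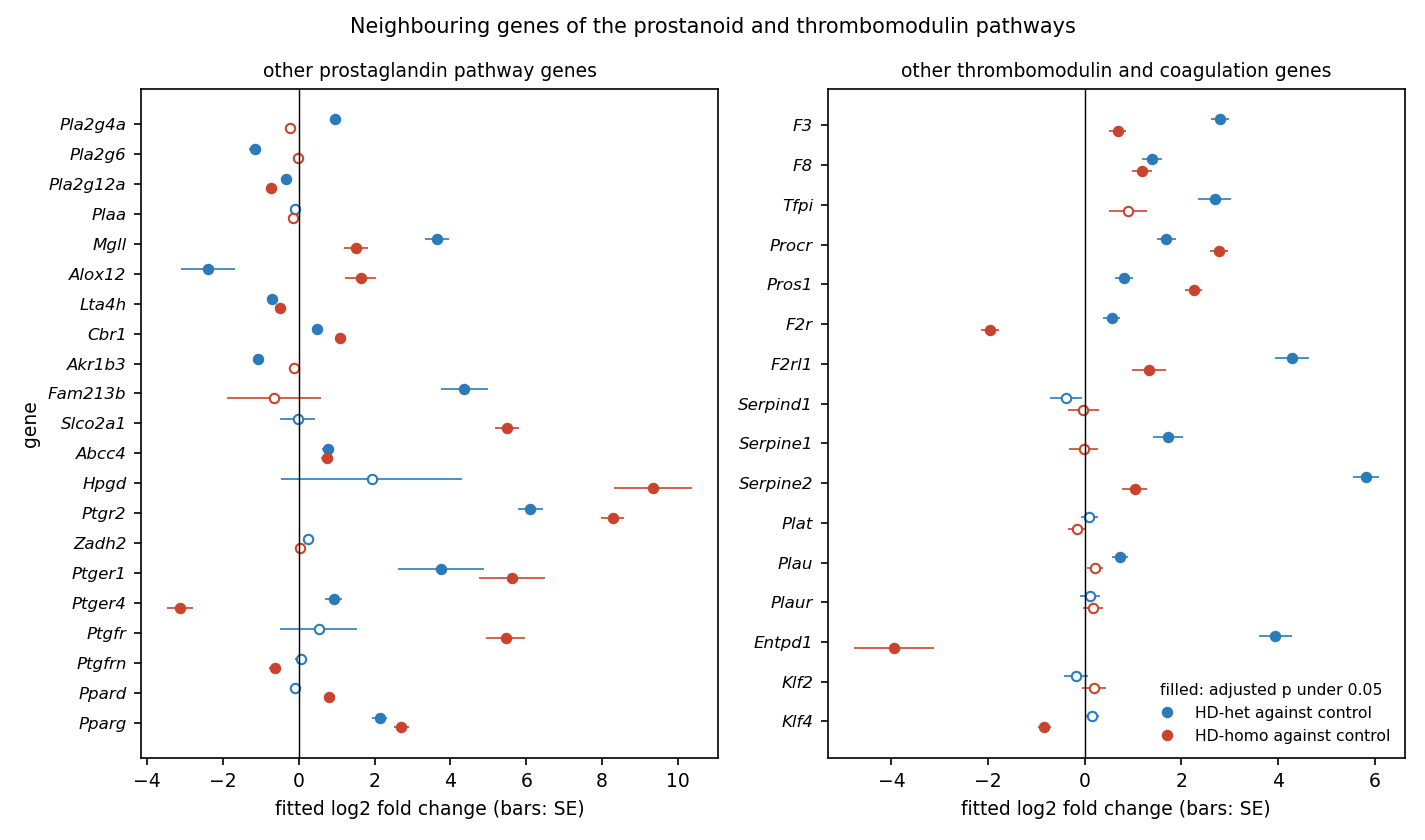
Fitted log2 fold changes (with SE) against control of the 21 tested genes of the prostaglandin list and the 16 of the thrombomodulin and coagulation list, filled where the adjusted p was under 0.05. Fitted values of Hpgd, Ptgfr, Ptger1, Fam213b and Ptgr2, which were close to 0 in control, depend on the prior count of the fit. In HD-homo, Slco2a1, Hpgd and Ptgr2 lay far to the right, and Ptger4 and Entpd1 far to the left.

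Several members were low in 1 of the 3 HD-homo libraries. In replicate 2 against the mean of replicates 1 and 3, Ptgs1 was lower by a difference of -1.33, Ptgis of -1.01 and Thbd of -0.77 on the scale of log2(CPM + 0.1). Of 7705 genes with a mean of at least 10 CPM, 0.169% had a lower difference than Ptgs1, 0.649% than Ptgis and 1.62% than Thbd. Ptges2 (-0.61, with 3.10% of genes lower) and Ptges (-0.54, with 4.21% lower) were lower in that replicate too, Ptges3 (-0.12) and Ptgs2 (-0.03) were near the others, and Ptgr1 was higher (0.35). Over all genes, replicate 2 held the lowest of the 3 HD-homo values in 37.6%, beside 33.3% for replicate 1 and 29.1% for replicate 3, and the median SD of log2 CPM within a line was 0.0788 for control, 0.110 for HD-het and 0.148 for HD-homo. The low replicate of Ptges stayed above every library of the other lines, as did that of Thbd and of Ptgis. Thbd and Ptgis were selected on high HD-homo counts, and Ptges passed the filter only with its HD-homo libraries. For none of them is this support.

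**Figure D4:**
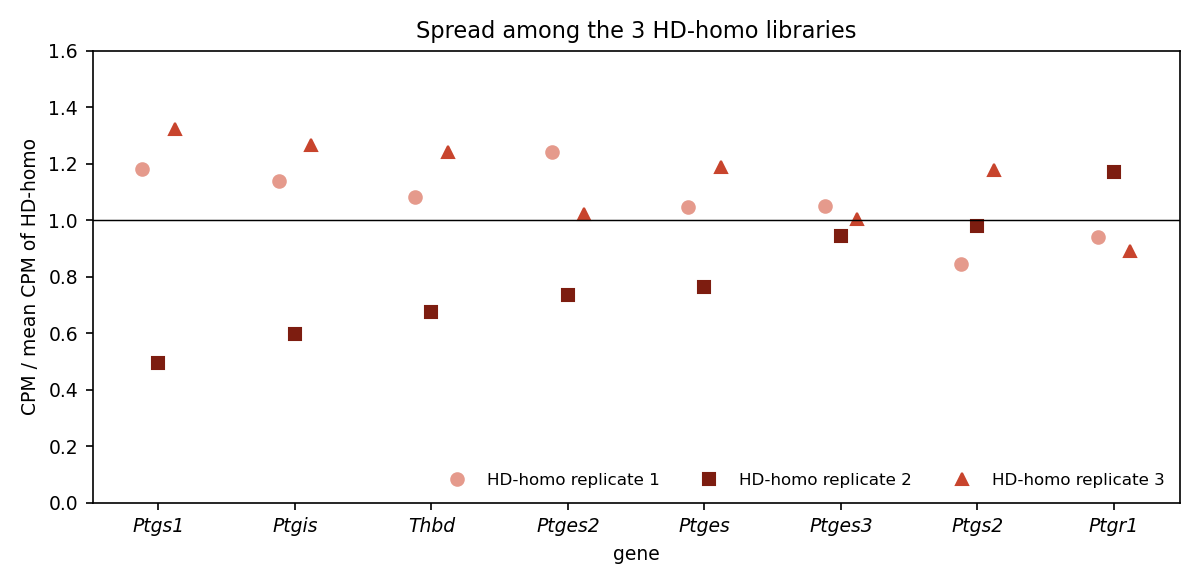
CPM of each gene in the 3 HD-homo libraries divided by the mean of the line, with 1 symbol per replicate. Replicate 2 was the lowest for Ptgs1, Ptgis, Thbd, Ptges2, Ptges and Ptges3 and the highest for Ptgr1.

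Since Thbd and Ptgis are known from vessel walls and Ptgs1 and Tbxas1 from platelets, markers of those cells were read beside them. Of 11 endothelial markers, Cldn5 and Emcn had 0 counts in all 9 libraries, Pecam1 had none in control and HD-het libraries, and Egfl7 alone reached 1 CPM in HD-homo cells. Their summed level was 5.30 to 6.09 CPM over the control libraries, 6.08 to 7.80 CPM over those of HD-het and 6.87 to 9.40 CPM over those of HD-homo, and their part in the level of Thbd was not tested.

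Of 10 megakaryocyte and platelet markers, Gp1ba, Gp1bb, Gp9 and Gp6 had 0 counts in all 9 libraries, but the summed level was 12.5 to 22.5 CPM over the control libraries, 119 to 123 CPM over those of HD-het and 355 to 880 CPM over those of HD-homo, led there by the chemokine Ppbp at 557 CPM. In control and HD-het the sum was led by Itgb3, which peaked in HD-het instead. Itgb3 had 17.2, 118 and 14.7 CPM on average for control, HD-het and HD-homo. Of the 5 markers with any count, the other 4 were highest in HD-homo, but Pf4 and Gp5 with no more than 1 count in any library. Part of this list thus moved with Thbd, and its part in the result was not tested. Markers of the labelled tissue were low: the 12 striatal neuron markers summed to between 44.3 and 75.4 CPM over all libraries, most of it Foxp1, and the dopamine receptors Drd1 and Drd2 had 0 counts in every library.

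Finally, the genes whose profile over the 9 libraries was most like that of Ptgs2, Ptgis or Thbd were listed by the root mean square difference of centred log2(CPM + 0.1) values among 8368 genes. For Ptgs2 these included Lgr4 (0.161), Dhrs7 (0.184), Sgce (0.188) and Antxr1 (0.190). For Ptgis they were Adm, the vasodilator adrenomedullin (0.595), Trim25 (0.677), Car12 (0.682), C3 (1.02) and Traf1 (1.05), and Adm had 0.919, 0.0631 and 19.4 CPM on average for control, HD-het and HD-homo, the same order of lines as Ptgis. For Thbd they were Ppbp (0.440), Ccl5 (0.594), the adhesion molecule Selp (0.689), Xlr (0.692) and Scn3a (0.904), and Selp had 0.0457, 0.480 and 86.6 CPM in the 3 lines. These lists describe likeness over 9 libraries of 3 lines and carry no test.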

How the data were processed

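Ribosome footprints of 80S monosomes were sequenced from 3 striatal lines. The authors deposited raw counts per gene symbol, 1 column per library, without normalization. The submitters' processing notes name cutadapt, Bowtie 1.0.1 and build mm10. The counting program, annotation and use of strand were not given in the sources used here. Groups came from the labels.

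Counts of all 9 libraries were fitted by line in edgeR 4.0.16 (R 4.3.3, limma 3.58.1) with TMM factors, filterByExpr and the quasi-likelihood F test. P-values were adjusted by Benjamini-Hochberg over the 12678 genes tested (threshold 0.05). An SE is the log2 fold change divided by the square root of F. Ptgis and Thbd were given no p. A fold is "at least" against a group at 0 counts, with a floor of 3 counts per library. Against a group with few counts, the ratio of pooled counts with an exact 95% interval is given.

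The members and the lists were chosen with earlier results of these data known. All members, any tested gene of both pathway lists, marker lists as sums, and the 5 genes most like Ptgs2, Ptgis and Thbd could be named, and some items of these lists are not reported here. Alternatives included DESeq2 1.42.0, other scaling, other filters and leaving out libraries. The code was checked on simulated data.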

Additional observations from a re-analysis of the deposited data

How the results depend on the processing

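The changes of the members and the counts of calls were recomputed with other size factors, other filters, DESeq2, only the 6 libraries compared, a stricter threshold, a replicate block and without each library in turn. Of 284 recomputed values of the 6 tested enzymes, 278 kept their direction and side of the threshold. Of 89 values of Ptgis and Thbd, which have no test, 86 moved by less than the spread between libraries, and none of the 373 changed direction. The exceptions were Ptgr1 and Ptges2 as given above, Ptges2 in HD-homo against control with total counts (0.46, adjusted p = 0.0435), and 3 values of Ptgis and Thbd that moved by more than the spread without 1 HD-het library. Without HD-het replicate 2, Ptgis in HD-het against control became -3.84. Without HD-het replicate 3, Thbd became 1.00 in HD-het against control and 9.58 in HD-homo against HD-het. Shifts of Ptgis within the spread were to -5.26 in HD-het against control without HD-het replicate 1. In HD-homo against HD-het they were to 8.07 or 9.49 without HD-het replicate 2 or 1. Without control replicate 2, Ptges became 4.54 in HD-het and 9.60 in HD-homo against control. With at least 10 counts asked of every library, 13 prostaglandin list genes and 5 members were tested, since Ptges, Ptgis and Thbd drop out, and 8 list genes were called in HD-het and 8 in HD-homo relative to control, where 14 and 15 had been, and 10 between the HD lines, where 18 had been. These list counts are given without the share called among all genes under that filter, so they are not read against it. Leaving out 1 library at a time gave 3417 to 4155 genes higher and 3319 to 3914 lower in HD-het than control, 2313 to 2965 and 2352 to 3022 for HD-homo, and 4073 to 4384 and 3874 to 4188 between the HD lines. The deviations of same-numbered libraries of different lines correlated between -0.517 and 0.276 and exceeded 0.1 in 3 of 9 pairs. A pair with different numbers, control replicate 2 and HD-homo replicate 1, reached 0.561. Deviations from a mean of 3 libraries depend on one another, so these values cannot show whether rounds were shared between lines. With a replicate block, 3825 genes were higher and 3638 lower in HD-het than control, 2803 and 2703 for HD-homo, and 4309 and 4097 between the HD lines. Depth limits what can be said of Ptgds and Tbxas1, which had at most 10 counts per library.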
